A study of Mus musculus with 9 samples.

Results

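The 43 genes described here encode proteins of the G2 phase and of mitosis, the stretch of the cell cycle in which a cell prepares to divide, separates its copied chromosomes and splits. They were taken from the deposited expression table by gene name, and 43 of 43 were found among its 54532 genes. The rule for membership used no measured value, but the genes were chosen with earlier results of these data known. Their messenger RNA was followed in BV2, an immortalized line of mouse microglia, the resident macrophages of the brain. Expression was sequenced in 3 groups of 3 libraries each. The control cells were kept in complete medium with 10% serum. Cells under oxygen-glucose deprivation, written OGD, were moved to low-glucose medium with 4% serum in a chamber at 4% oxygen. The last group, written OGD + A-485, had the same deprivation together with A-485, which the study used as an inhibitor of the acetyltransferase P300. The study methods give 24 h and 50 μM for the experiments that came before the transcriptome, and these are taken to hold for the libraries. Low oxygen, low glucose and less serum came together in the OGD group and cannot be told apart, and none of the libraries had A-485 without OGD.

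Entry into mitosis is driven by Cdk1 bound to cyclin B, which the Cdc25 phosphatases switch on and which Plk1 and the Aurora kinases reinforce. The spindle then attaches chromosomes at their kinetochores, a checkpoint holds the cell until all are attached, and the anaphase-promoting complex with Cdc20 marks securin and the cyclins for destruction so that sister chromatids part. Most of these genes are transcribed late in the cycle by a shared machinery, in which the MuvB complex with B-Myb and FoxM1 acts through short promoter elements called CHR, for cell cycle genes homology region, and NF-Y acts through CCAAT boxes. In resting cells the same promoters are held silent by the DREAM complex. Their transcripts are therefore used as a gauge of how many cells in a culture are dividing.

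Between 12593250 and 16091038 reads fell on genes in each library, and the 43 genes took from 82 reads in one library for Cdc25c to 11271 for Mki67. Levels are given in FPKM, fragment counts scaled by gene length and by library depth. Of the microglial and macrophage markers set for the check of the cell type, 10 of 12 were at 1 FPKM or more on average in control and in OGD and 11 in OGD + A-485, while the homeostatic marker P2ry12 stayed between 0.0103 and 0.244 FPKM in the group means. The summed level of these 12 markers ran from 465 to 483 FPKM in control, 532 to 564 under OGD and 1092 to 1119 with A-485. The sum thus moved opposite to the 43 genes, but its largest part was Cd68 (277, 306 and 445 FPKM in the group means). In OGD, Csf1r, Itgam, Cx3cr1 and Ptprc were called higher (11.2% of all genes). Spi1 (43.9 to 38.5 FPKM) and Adgre1 (20.8 to 18.8 FPKM) were lower there, not called, and rose with A-485. Called higher with A-485 over OGD were Cd68, Tyrobp, Csf1r, Spi1, Adgre1, Itgam, Cx3cr1, Trem2 and Aif1 (12.2% of all genes). Ptprc and Tmem119 were not called in that step, and P2ry12 was too low to be tested. Tmem119 stayed at 1.40, 1.34 and 1.33 FPKM. The part of these markers in the results below was not tested. Markers of neurons, astrocytes, oligodendrocytes, endothelial cells and fibroblasts summed to at most 2.36 FPKM for any of these types, and the fibroblast genes Col1a2, Dcn and Lum were at 0 in all libraries. The labels do not say whether the 3 libraries of a group came from separate cultures, so p-values measure the spread between these libraries, which may be technical.

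The mitotic genes were lower in OGD than in control and lower again with A-485. Their summed level was 1353, 1358 and 1403 FPKM in the control libraries, 936, 908 and 956 in the OGD libraries, and 583, 553 and 530.0 in the OGD + A-485 libraries. No library of one group reached into the range of another. The group means were 1371 ± 27.8, 933 ± 23.8 and 555 ± 26.5 FPKM (SD, n = 3), so the sum stood at 68.1% of control in OGD and at 40.5% of control with A-485. As a share of all reads on genes, the 43 took 0.654% to 0.672% in control, 0.438% to 0.449% under OGD and 0.235% to 0.262% with A-485. In RNA from whole cultures, fewer cells in mitosis and less of each transcript per cell cannot be told apart.

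**Figure D1:**
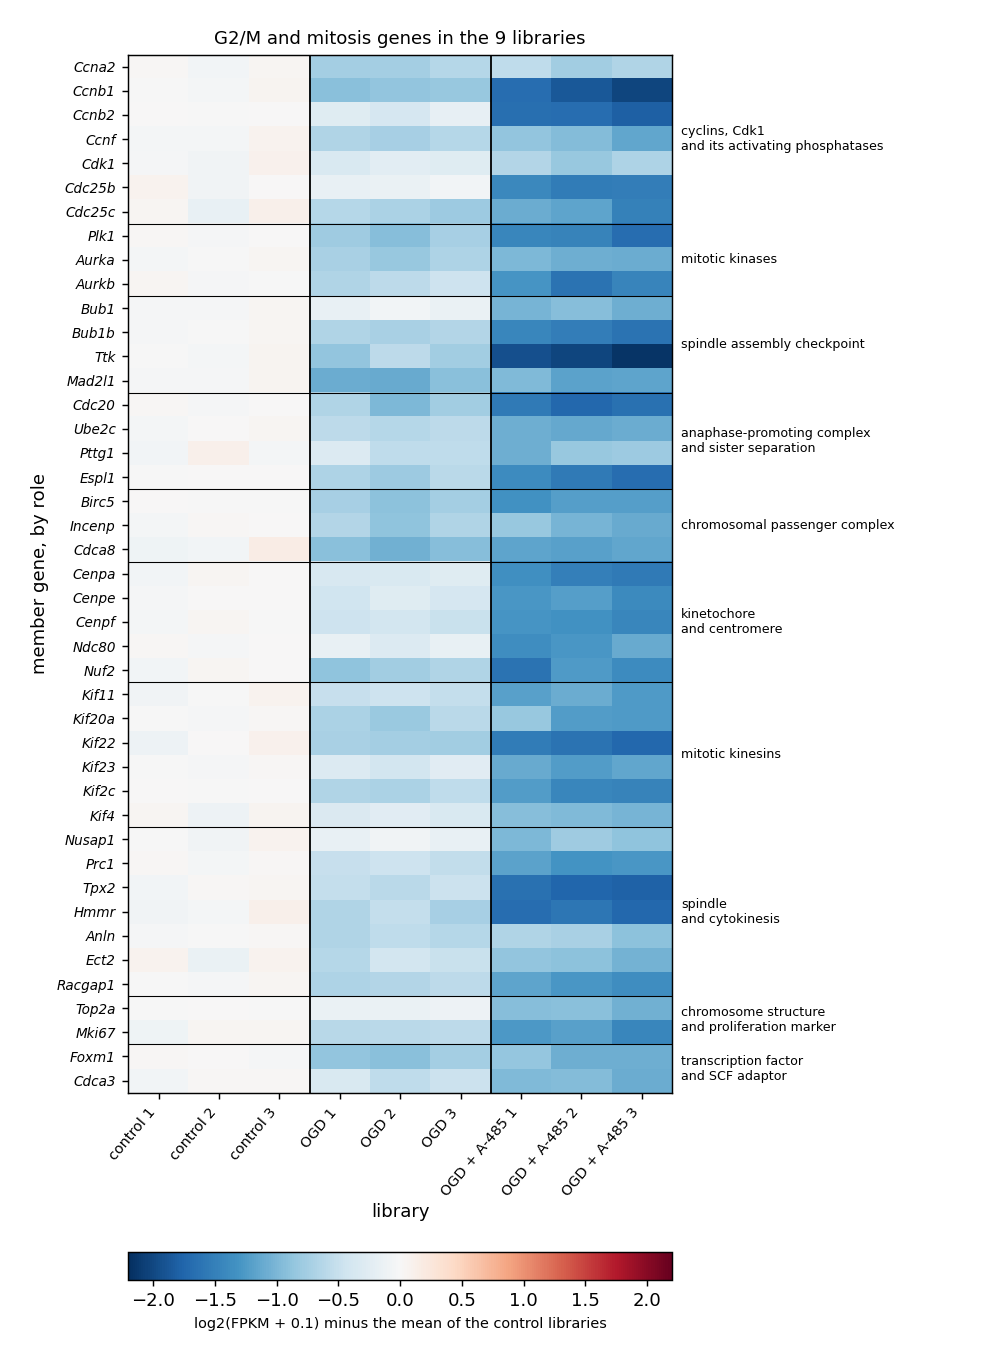
The 43 genes (rows, grouped by role) in the 9 libraries (columns), as log2(FPKM + 0.1) minus the mean of the control libraries on the same scale. Blue is below control and red above. The OGD columns are paler than the OGD + A-485 columns in most rows, as in the medians of -0.62 and -1.25 against control, while Mad2l1 and Ccna2 are about as blue in both.

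A gene is called where limma gave p under 0.01 together with a log2 fold change beyond 0.5 in size, the thresholds of the study, in a fit of all 16123 genes that had a mean of at least 0.2 FPKM. All 43 genes passed that minimum. OGD lowered 28 of them against control and raised 0, where 9.81% of all genes tested were called lower and 21% in either direction. A-485 lowered 29 of them against OGD and raised 0, where 13.4% of all genes were called lower and 25.7% in either direction. Against control, the OGD + A-485 group was lower for 43 of 43, against 16.6% of all genes called lower and 33.7% in either direction. The median log2 fold change over the 43 genes was -0.62 for OGD against control, -0.71 for OGD + A-485 against OGD and -1.25 for OGD + A-485 against control, and over all genes tested it was 0.01, 0.01 and 0.02. The first and the second comparison share the OGD libraries, so their fold changes are not independent of each other.

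Every gene had a lower mean in OGD than in control, and for 41 of 43 each OGD library lay below each control library, against 27.5% of all genes tested. The exceptions were Cdc25b and Nusap1, whose libraries overlapped. With A-485, 38 of 43 lay below OGD in every library, against 28.3% of all genes, and Anln, Ccna2, Foxm1, Incenp and Mad2l1 overlapped. All 43 were separate between OGD + A-485 and control, against 32% of all genes. An exact two-sided permutation test of 3 libraries against 3 cannot go below p = 0.1, so no single gene was tested that way. Adjusted p-values (limma, Benjamini-Hochberg over 16123 genes) were under 0.05 for 39, 39 and 43 of the genes in the order of the comparisons above. Replicates lay close together, with a median coefficient of variation over the 43 genes of 3.36% in control, 5.35% under OGD and 6.79% with A-485. OGD + A-485 replicate 3 was the lowest of its group for 28 of 43 genes.

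The calls split the genes into 4 sets. In both steps 16 were lower: Aurkb, Bub1b, Ccnb1, Cdc20, Cdc25c, Espl1, Hmmr, Kif22, Kif2c, Mki67, Nuf2, Plk1, Prc1, Racgap1, Tpx2 and Ttk. A further 12 were lower in OGD and not called with A-485: Anln, Aurka, Birc5, Ccna2, Ccnf, Cdca8, Ect2, Foxm1, Incenp, Kif20a, Mad2l1 and Ube2c. Another 13 were not called in OGD and lower with A-485: Bub1, Ccnb2, Cdc25b, Cdca3, Cenpa, Cenpe, Cenpf, Kif11, Kif23, Kif4, Ndc80, Nusap1 and Top2a. Cdk1 and the securin gene Pttg1 passed in neither step and were lower in OGD + A-485 than in control. A call in one step and none in the other does not show that the steps differ, and the difference itself is tested further on.

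The promoters of these genes were read for the elements of late-cycle transcription. The genes were chosen by name from a class known for these elements. A high frequency therefore follows from the membership and is no result of the measured falls. RefSeq promoters on GRCm38.p6, from 250 bases before to 50 after the start, were at hand for 36 of the 43 genes, 38 promoters in all. Aurkb, Ccna2, Cdc25c, Foxm1, Incenp, Kif20a and Tpx2 had none in the table. The letters searched on both strands were CCAAT for the NF-Y box, TTTGAA and TTCGAA for the CHR, and TTTCCCGC and TTTGGCGC for an E2F site. A CHR was found in 31 of 38 promoters (81.6%), against 19.2% of all 32851 promoters of the same length. CCAAT was found in 30 of 38 (78.9%), against 37.4%, and at least 2 copies in 52.6%, against 11.7%. Both elements occurred together in 73.7% of these promoters and in 7.52% of all. The E2F letters occurred in 0 of 38 and in 1.56% of all, too rare for 0 of 38 to mark a difference. In 1 of 43 CHR matches a base was shared with a CCAAT match.

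Shown here are 7 promoters, each as the 150 bases that end just before the RefSeq start, 5′ to 3′ on the gene's own strand, with CCAAT or its reverse complement ATTGG and the CHR or its reverse complement in capitals. Top2a and Mki67 are shown as the most used marks of dividing cells, and Ccnf and Kif11 for a CHR just before the start. Ccnb2 and Ttk are genes among the 3 with the largest falls with A-485. Mad2l1 is the gene with the largest fall in OGD, with neither element in its RefSeq window. These 7 promoters lie at chr11:99024190-99024339 (minus strand), chr7:135716380-135716529 (minus), chr17:24251410-24251559 (minus), chr19:37376232-37376381 (plus), chr9:70421555-70421704 (minus), chr9:83834539-83834688 (plus) and chr6:66535071-66535220 (plus).
Top2a: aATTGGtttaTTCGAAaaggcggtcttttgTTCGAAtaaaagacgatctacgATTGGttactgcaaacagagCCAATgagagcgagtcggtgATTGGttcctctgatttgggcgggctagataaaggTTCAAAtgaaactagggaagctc
Mki67: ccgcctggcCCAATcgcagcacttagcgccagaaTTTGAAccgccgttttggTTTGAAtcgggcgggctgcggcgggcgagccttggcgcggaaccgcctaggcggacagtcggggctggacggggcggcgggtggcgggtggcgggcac
Ccnf: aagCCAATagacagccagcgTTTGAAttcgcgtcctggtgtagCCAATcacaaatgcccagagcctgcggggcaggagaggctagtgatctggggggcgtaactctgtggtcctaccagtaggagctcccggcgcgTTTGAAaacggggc
Kif11: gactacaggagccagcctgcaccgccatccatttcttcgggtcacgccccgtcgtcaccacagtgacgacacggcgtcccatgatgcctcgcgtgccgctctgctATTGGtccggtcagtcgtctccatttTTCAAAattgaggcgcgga
Ccnb2: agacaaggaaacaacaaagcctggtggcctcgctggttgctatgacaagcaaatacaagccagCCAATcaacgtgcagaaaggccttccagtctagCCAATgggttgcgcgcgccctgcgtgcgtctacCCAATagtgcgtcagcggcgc
Ttk: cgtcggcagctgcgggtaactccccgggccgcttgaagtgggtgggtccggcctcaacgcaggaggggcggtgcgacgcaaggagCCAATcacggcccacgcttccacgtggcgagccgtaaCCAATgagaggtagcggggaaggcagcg
Mad2l1: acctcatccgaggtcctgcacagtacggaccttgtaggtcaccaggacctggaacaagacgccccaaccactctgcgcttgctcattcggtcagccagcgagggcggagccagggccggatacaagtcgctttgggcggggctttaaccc

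Top2a held 3 CHR matches in this stretch, the nearest starting 23 bases before the start, Ccnf held 2, at 130 and 14 bases before it, and Kif11 held 1 at 19 bases before it. In Ccnb2 the 3 CCAAT boxes were 33 bases apart, and a CHR began at base 5 after the start, outside the stretch shown. Ttk likewise held 2 CCAAT boxes before the start and a CHR at base 8 after it. Over the 43 CHR matches in the members' promoters, the first base of the median match was 14 bases before the start. Of these matches, 25 lay between 60 bases before and 30 after, in promoters of 23 genes. Positions were not counted over all promoters, so these values have no background beside them. Neighbouring CCAAT boxes 30 to 36 bases apart were found in 8 of the 20 members' promoters with at least 2 boxes (40%), against 15.4% of all such promoters. Neither CCAAT nor CHR was found for Birc5, Mad2l1, Nuf2, Nusap1 and Pttg1. For Mad2l1 and Pttg1 the RefSeq start was not that of the expression table, so the start given there was not searched. The Mad2l1 window ended at base 66535270 and the gene begins at 66535390, and the Pttg1 window lay inside the gene. The windows of Kif2c, Cdca8, Cdca3 and Kif4 also lay inside their genes. Their matches are counted above, with positions taken from those RefSeq starts. These matches describe letters and not bound sites. The 29 genes with a CHR had a median log2 fold change of -0.59 in OGD and -0.75 with A-485 over OGD, and the 7 without had -0.77 and -0.65.

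**Figure D2:**
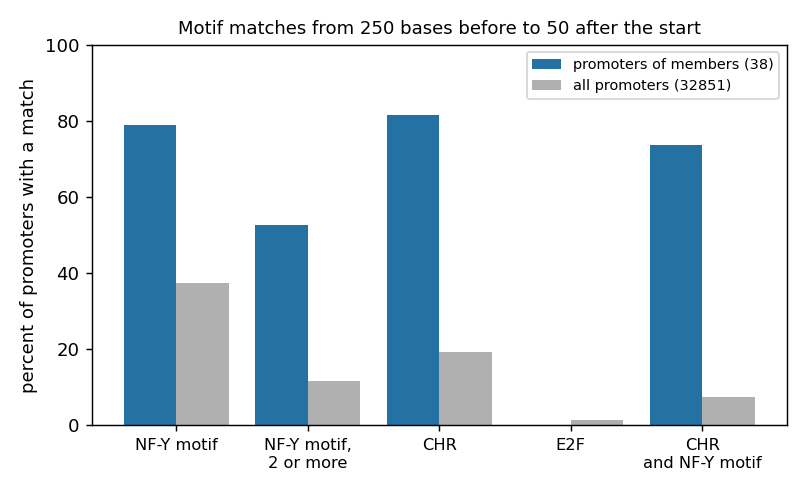
Percent of promoters that hold each element (vertical axis) for the 38 promoters of the members (blue) and all 32851 promoters of the RefSeq table (grey), both strands, in 300 bases around the start. The CHR was in 81.6% of the members' promoters and 19.2% of all. The E2F letters were in 0 of 38 and in 1.56% of all, too rare to show a difference.

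Among the cyclins, Cdk1 and its activating phosphatases, 4 of 7 genes were lower in OGD and 4 of 7 with A-485. Beside this and the counts by role below stand the shares of all genes called lower, 9.81% in OGD and 13.4% with A-485. In roles of so few genes, the smallest counts are not set apart from those shares. The B cyclins had the largest falls of the 7 against control. Ccnb1 (ENSMUSG00000041431, chr13:100778650-100786570 on GRCm38), which encodes cyclin B1, stood at 61.7, 59.7 and 64.3 FPKM in the control libraries, 32.5, 34.0 and 34.6 under OGD and 19.2, 16.9 and 15.3 with A-485. The groups were widely separate, and the highest OGD + A-485 library was below the lowest OGD library. Its log2 fold change was -0.87 ± 0.08 (adjusted p = 2.67e-05) in OGD and -0.98 ± 0.08 (adjusted p = 9.84e-06) with A-485 over OGD (SE, limma), which adds up to a mean 72.3% below control. A partner of Cdk1 from the same family, cyclin B2, behaved otherwise in the first step.

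Ccnb2 (ENSMUSG00000032218, chr9:70407692-70421547) was at 61.2, 60.8 and 61.6 FPKM in control, 51.2, 47.5 and 54.0 under OGD and 19.2, 19.1 and 17.6 with A-485. The OGD libraries lay close below control, and the OGD + A-485 libraries were far below both. The fold change in OGD was -0.27 ± 0.05 on the log2 scale and short of the threshold, while with A-485 it was -1.44 ± 0.05 (adjusted p = 1.68e-07), the largest fall of the 43 genes in that step. Cdc25b (ENSMUSG00000027330, chr2:131186949-131198497), a phosphatase that switches on Cdk1 at the entry into mitosis, came next with 39.9, 35.6 and 37.8 FPKM in control, 33.7, 34.1 and 36.3 under OGD and 14.0, 12.9 and 13.1 with A-485. Control and OGD overlapped at -0.12 ± 0.05, and A-485 gave a log2 fold change of -1.37 (SE 0.05, limma adjusted p = 2.45e-07).

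Cdk1, the kinase itself, gave smaller fold changes than cyclin B1. It measured 21.01, 20.4 and 23.0 FPKM in control, 17.0, 18.3 and 17.9 under OGD and 13.6, 12.01 and 13.4 with A-485. The 3 groups did not overlap, yet neither step passed the fold threshold, with -0.27 ± 0.06 in OGD and -0.44 ± 0.06 with A-485 (-0.51, and called, with scaling to library totals). Across both steps it was called, at -0.72 ± 0.06 (adjusted p = 1.53e-05) against control (limma). Cdc25c, a second activating phosphatase and the least covered of the genes, fell by 0.71 on the log2 scale in OGD and by 0.53 with A-485. The second of these calls was lost without OGD replicate 1 (-0.50) or OGD + A-485 replicate 3 (-0.42), and with all libraries at a pseudocount of 1 (-0.44) or with quantile normalization (-0.50).

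Ccna2 and Ccnf were called in OGD and not with A-485, the reverse of Ccnb2. Ccna2, cyclin A2, which acts from S phase to early mitosis, had means of 23.4 ± 0.86, 14.3 ± 0.71 and 14.8 ± 1.0 FPKM (SD, n = 3) in control, OGD and OGD + A-485. It fell by 0.71 in OGD on the log2 scale (limma adjusted p = 2.42e-05), and the value with A-485 was 0.05 ± 0.06, the 1 positive value among the 43 (-0.0197 with scaling to library totals), with OGD and OGD + A-485 libraries overlapping. Ccnf, cyclin F, a subunit of a ubiquitin ligase, fell by 0.67 in OGD and gave -0.31 ± 0.07 with A-485.

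**Figure D3:**
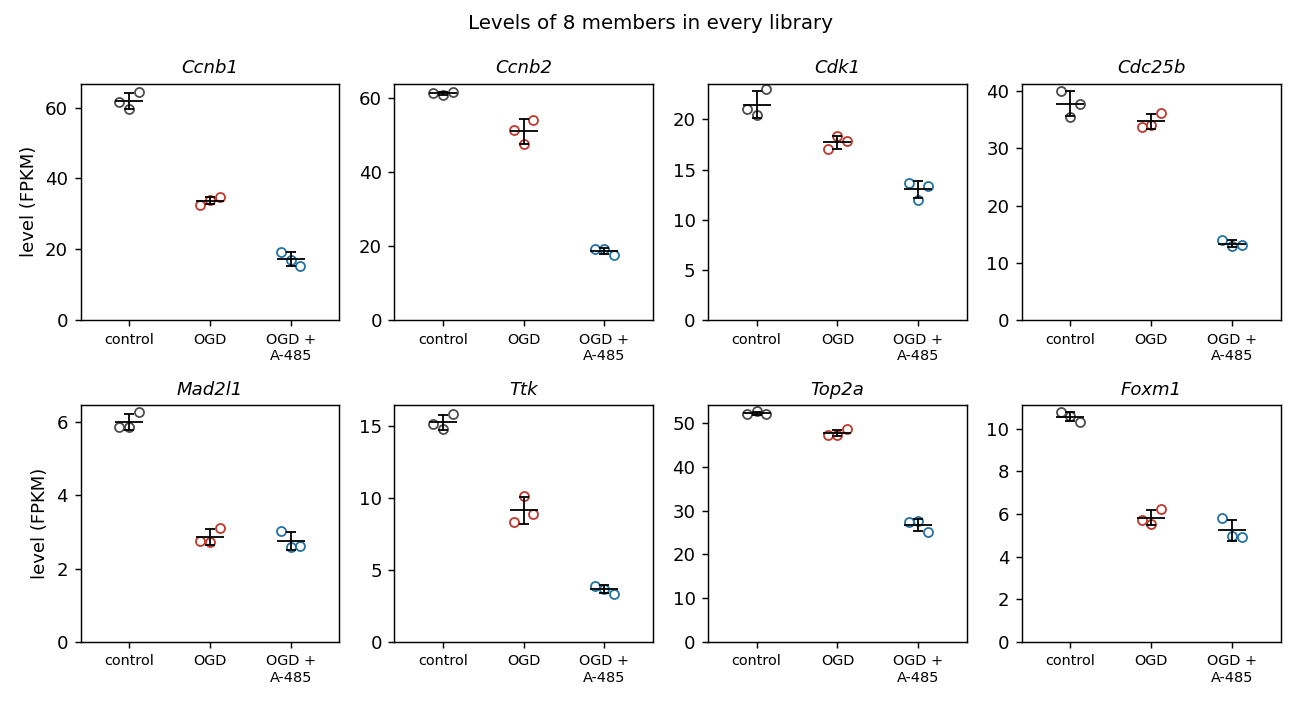
Levels of 8 members in FPKM (vertical axis, from 0) in every library (open circles), with the mean and SD of each group (n = 3) in black. Ccnb1 and Ttk step down in OGD and again with A-485, Ccnb2, Cdc25b and Top2a step down mainly with A-485, Mad2l1 and Foxm1 step down in OGD, and Cdk1 declines in 2 small steps from 21.5 to 17.7 and 13.02 FPKM.

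All 3 mitotic kinases, Plk1, Aurka and Aurkb, were lower in OGD, and Plk1 and Aurkb were lower again with A-485. Plk1, the polo kinase of mitotic entry and centrosome maturation, was at 55.7, 54.2 and 55.0 FPKM in control, 32.0, 28.8 and 33.1 under OGD and 20.3, 19.8 and 17.1 with A-485. No library crossed between groups, and the fold changes were -0.81 ± 0.07 (adjusted p = 3.27e-05) and -0.71 ± 0.07 (adjusted p = 5.27e-05) on the log2 scale (limma). Aurkb, the kinase that corrects wrong spindle attachments as part of the chromosomal passenger complex, was at 46.1, 44.0 and 44.9 FPKM in control, 28.3, 30.04 and 32.7 under OGD and 18.2, 14.5 and 16.3 with A-485. Again the groups were apart, with -0.57 ± 0.08 (adjusted p = 5.20e-04) in OGD and -0.90 ± 0.08 (adjusted p = 2.88e-05) with A-485 (limma). Aurka, the centrosomal Aurora kinase, fell by 0.74 in OGD and gave -0.31 ± 0.05 with A-485, where its libraries were apart but the change was under the threshold.

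The 4 checkpoint genes were all lower against control, by different routes. Ttk (ENSMUSG00000038379, chr9:83834689-83872389), which encodes the checkpoint kinase Mps1, had the largest fall of all 43 genes against control. It measured 15.1, 14.8 and 15.8 FPKM in control, 8.30, 10.1 and 8.89 under OGD and 3.90, 3.67 and 3.34 with A-485, with no overlap between groups. Its log2 fold changes were -0.74 ± 0.08 (adjusted p = 1.22e-04) in OGD, -1.30 ± 0.08 (adjusted p = 3.35e-06) with A-485 over OGD and -2.04 ± 0.08 (adjusted p = 1.56e-07) against control (limma). Mad2l1 (ENSMUSG00000029910, chr6:66535390-66547220), the inhibitor of Cdc20 that carries the wait signal, had the largest fall in OGD. Its libraries held 5.88, 5.87 and 6.27 FPKM in control, 2.75, 2.74 and 3.11 under OGD and 3.03, 2.603 and 2.62 with A-485. OGD cut it to less than control in every library, and the OGD + A-485 libraries overlapped those of OGD. The fold changes were -1.04 ± 0.09 (adjusted p = 2.05e-05) in OGD and -0.06 ± 0.09 (adjusted p = 0.609) with A-485.

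Bub1, a kinase that brings the checkpoint to the kinetochore, had its fall in the other step from Mad2l1. It was at 59.3, 58.8 and 62.0 FPKM in control, 53.7, 57.6 and 54.0 under OGD and 29.5, 31.2 and 28.5 with A-485. OGD lay just below control without overlap, at -0.12 ± 0.05 (adjusted p = 0.0562), and A-485 gave -0.89 ± 0.05 (adjusted p = 9.70e-07) against OGD (limma). Bub1b, which encodes the Cdc20 inhibitor BubR1, fell in both steps, by 0.67 and 0.86 on the log2 scale, from 78.3 ± 1.7 through 49.2 ± 1.2 to 27.2 ± 1.7 FPKM.

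The genes that end mitosis were lower too, 3 of 4 in OGD and 2 of 4 with A-485. Cdc20 (ENSMUSG00000006398, chr4:118432901-118437352), the activator of the anaphase-promoting complex and the most abundant of the 43 genes per length in each group, was at 104, 100.3 and 103 FPKM in control, 64.9, 51.7 and 60.5 under OGD and 34.9, 30.9 and 32.7 with A-485. Each step lowered it without overlap, at -0.80 ± 0.08 (adjusted p = 5.74e-05) and -0.84 ± 0.08 (adjusted p = 3.41e-05) on the log2 scale (limma). Ube2c, the ubiquitin-conjugating enzyme of the same complex, was at 56.1, 58.3 and 60.1 FPKM in control, 38.8, 37.5 and 38.9 under OGD and 27.6, 26.6 and 27.3 with A-485. The replicates of Ube2c were tight and the groups apart, at -0.60 ± 0.04 (adjusted p = 4.32e-06) in OGD and -0.50 ± 0.04 (adjusted p = 7.14e-06) with A-485. The second value lies at the edge of the fold threshold, and it passed at -0.51, -0.51 and -0.50 without OGD replicate 2, OGD + A-485 replicate 1 or OGD + A-485 replicate 3, at -0.60 with quantile normalization and at -0.56 with scaling to library totals.

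Espl1, which encodes separase, the protease that opens cohesin rings, fell by 0.69 in OGD and by 0.86 with A-485 on the log2 scale. Pttg1, which encodes securin, the inhibitor of separase, gave -0.47 ± 0.10 and -0.43 ± 0.10 and passed in neither step. It would be called in OGD without control replicate 1 (-0.50) or OGD replicate 1 (-0.56), or with scaling to library totals (-0.52). Against control, both were lower with A-485, Espl1 at -1.54 ± 0.08 (adjusted p = 4.29e-07) and Pttg1 at -0.90 ± 0.10 (adjusted p = 5.85e-05) (limma).

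The scaffold genes of the chromosomal passenger complex, which positions Aurora B, fell in OGD and were not called with A-485, 3 of 3 and 0 of 3. Cdca8, which encodes borealin, was at 15.9, 16.1 and 18.9 FPKM in control, 8.92, 8.07 and 8.83 under OGD and 7.52, 7.31 and 7.57 with A-485. Its OGD libraries were far below control and its OGD + A-485 libraries only slightly below those, at -0.97 ± 0.07 (adjusted p = 1.19e-05) and -0.20 ± 0.07 (adjusted p = 0.0458) on the log2 scale (limma). Birc5, which encodes survivin, fell by 0.80 in OGD and gave -0.46 ± 0.06 with A-485, a value that passed the threshold at -0.51 without OGD replicate 2 and at -0.52 with scaling to library totals. Incenp, which anchors the complex to the inner centromere, fell by 0.73 in OGD, and its OGD + A-485 libraries overlapped those of OGD at -0.26 ± 0.08. Aurkb, the kinase subunit described above, was lower in both steps.

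Of the 5 kinetochore and centromere genes among the 43, 1 was lower in OGD and 5 with A-485. Cenpa, the histone H3 variant that marks centromeres, was at 19.1, 20.6 and 20.04 FPKM in control, 15.6, 15.8 and 16.6 under OGD and 7.78, 6.99 and 6.71 with A-485, with fold changes of -0.31 ± 0.06 and -1.15 ± 0.06 (adjusted p = 1.08e-06) on the log2 scale (limma). Ndc80, a subunit of the complex that grips microtubules, went from 6.69 ± 0.13 to 5.75 ± 0.31 and 2.76 ± 0.26 FPKM, at -0.22 ± 0.08 and -1.03 ± 0.08 (adjusted p = 8.94e-06). Nuf2, its partner in that complex, was the gene called in OGD, at -0.77 ± 0.10 (adjusted p = 3.43e-04), and fell by 0.65 with A-485, a call lost at a pseudocount of 1 (-0.495). Cenpe, a kinetochore motor, and Cenpf gave -0.36 ± 0.06 and -0.45 ± 0.06 in OGD and fell by 0.94 and 0.91 with A-485. In all 5 genes the 3 groups were separate. In the list of further mitosis genes, 14 other kinetochore genes were grouped by name after their values were seen. Of these genes, 11 were lower in OGD (9.81% of all genes) and 10 with A-485 (13.4% of all genes). They include the other subunits of the Ndc80 complex, Spc24 at -0.80 ± 0.14 and -1.05 ± 0.14 and Spc25 at -0.51 ± 0.06 and -0.87 ± 0.06.

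Mitotic kinesins, the motors that build the spindle and move chromosomes, were lower for 3 of 6 in OGD and for 5 of 6 with A-485. Kif22, which pushes chromosome arms, and Kif2c, which takes microtubules apart at centromeres, fell in both steps, by 0.74 and 0.89 for Kif22 and by 0.64 and 0.74 for Kif2c. Kif23 and Kif4, motors of the central spindle, and Kif11, which keeps the spindle poles apart, were not called in OGD, at -0.32 ± 0.05, -0.30 ± 0.06 and -0.49 ± 0.05. With A-485 they fell by 0.84, 0.67 and 0.69. Kif20a, a motor of cytokinesis, fell by 0.70 in OGD and gave -0.40 ± 0.11 with A-485, where OGD + A-485 replicate 1 (15.7 FPKM) stood above the others (11.8 and 11.8 FPKM). Without that library the value was -0.53 and passed, and without control replicate 1 or OGD replicate 2 the OGD value of Kif11 passed at -0.53 and -0.51, as it did with scaling to library totals (-0.54).

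Genes of the spindle and of cytokinesis were lower for 6 of 7 in OGD and for 5 of 7 with A-485. Tpx2, which nucleates spindle microtubules and activates Aurora A, was at 73.5, 77.8 and 78.5 FPKM in control, 53.3, 50.52 and 55.0 under OGD and 24.5, 22.8 and 22.3 with A-485. The groups did not overlap, and the second step was the larger, at -0.53 ± 0.05 (adjusted p = 3.83e-05) and -1.19 ± 0.05 (adjusted p = 3.04e-07) on the log2 scale (limma). Against control it fell by 1.72, one of the 3 largest falls with Ttk and Ccnb1. Hmmr, a microtubule-binding partner of Tpx2, and Racgap1, part of the centralspindlin complex, fell in both steps, by 0.64 and 1.02 and by 0.63 and 0.63. Nusap1, which bundles spindle microtubules, gave -0.13 ± 0.07 in OGD with overlapping libraries and fell by 0.75 with A-485. The reverse held for Anln, the contractile-ring scaffold anillin, which fell by 0.62 in OGD and gave -0.14 ± 0.06 with A-485.

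Prc1, which bundles the central spindle, and Ect2, which activates the contractile ring, sat at the threshold in OGD, at -0.50 ± 0.06 and -0.51 ± 0.08. Prc1 lost its call without any of control replicates 1 and 3 and OGD replicates 1 and 3 (-0.49, -0.49, -0.50 and -0.48), and Ect2 without control replicate 1, control replicate 3 or OGD replicate 1 (-0.48, -0.48 and -0.45). Both also lost it at a pseudocount of 1 (-0.45 and -0.47), and Prc1 with quantile normalization (-0.49). Tpx2 fell just short in OGD without OGD replicate 2, at -0.50. With A-485, Prc1 fell by 0.75 and Ect2 gave -0.43 ± 0.08.

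Of the pair most used to count dividing cells, Mki67 fell in both steps and Top2a with A-485. Mki67, which encodes the surface coat of mitotic chromosomes, was at 62.7, 69.0 and 69.2 FPKM in control, 43.9, 44.2 and 45.1 under OGD and 27.7, 29.1 and 24.6 with A-485. Each step was clear of the replicate spread, at -0.59 ± 0.06 (adjusted p = 9.58e-05) and -0.71 ± 0.06 (adjusted p = 2.49e-05) on the log2 scale (limma). Top2a, the topoisomerase that untangles sister chromatids, was at 52.1, 52.8 and 52.2 FPKM in control, 47.5, 47.4 and 48.7 under OGD and 27.4, 27.8 and 25.1 with A-485. Its OGD libraries were below control by a narrow margin, at -0.13 ± 0.04 (adjusted p = 0.0325), and A-485 gave -0.84 ± 0.04 (adjusted p = 8.49e-07) against OGD.

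Foxm1 (ENSMUSG00000001517, chr6:128362967-128376146), the transcription factor that drives many of the other genes, was at 10.8, 10.6 and 10.3 FPKM in control, 5.73, 5.53 and 6.25 under OGD and 5.82, 4.97 and 4.94 with A-485. OGD and OGD + A-485 overlapped, and both were below control in every library. The fold changes were -0.85 ± 0.08 (adjusted p = 3.20e-05) in OGD and -0.15 ± 0.08 (adjusted p = 0.126) with A-485 (limma). Cdca3, the adaptor that brings the Cdk1 inhibitor kinase Wee1 to its ubiquitin ligase, gave -0.45 ± 0.06 in OGD and fell by 0.56 with A-485. Without OGD replicate 1 it was called in OGD (-0.52) and not with A-485 (-0.49), and with scaling to library totals it was also called in OGD (-0.50).

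To ask whether both steps were of equal size, the second fold change minus the first was tested in the same limma fit, a contrast chosen after the values had been seen. The second fall was larger for 11 of 43 genes, where 16.2% of all genes tested were called below 0. The first fall was larger for 4, where 16.2% of all genes were called above 0, and for 28 no difference was called. Over both sides, the share of the 43 called unequal was near the 32.4% of all genes called on either side. Unequal steps thus do not set these genes apart. Larger with A-485 were the falls of Bub1, Ccnb2, Cdc25b, Cenpa, Cenpe, Kif23, Ndc80, Nusap1, Top2a, Tpx2 and Ttk. Cdc25b had the largest difference, -1.25 ± 0.10 (adjusted p = 1.55e-05), followed by Ccnb2 at -1.17 ± 0.09 (adjusted p = 1.90e-05) and Cenpa at -0.84 ± 0.10 (adjusted p = 2.45e-04). Larger in OGD were the falls of Mad2l1, at 0.98 ± 0.15 (adjusted p = 7.29e-04), Cdca8 at 0.77 ± 0.13, Ccna2 at 0.75 ± 0.10 and Foxm1 at 0.69 ± 0.13. Of the kinetochore genes, 3 of 5 were called unequal, and Cenpf at -0.46 ± 0.10 and Nuf2 at 0.13 ± 0.18 were not. Of the passenger complex scaffolds, Cdca8 was called, and Birc5 at 0.34 ± 0.10 and Incenp at 0.48 ± 0.15 were not. Both steps use the OGD libraries with opposite sign, so deviations of those libraries enter this difference from both steps.

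**Figure D4:**
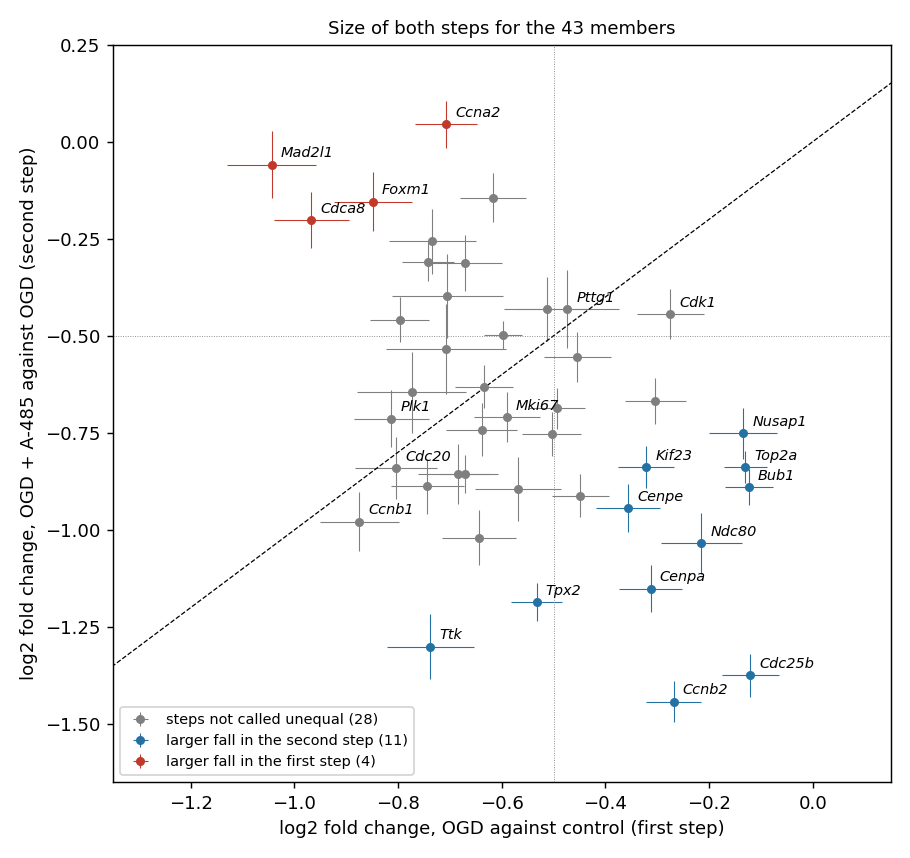
Log2 fold change of OGD against control (horizontal axis) and of OGD + A-485 against OGD (vertical axis) for the 43 genes, with standard errors. The dashed line marks equal steps, dotted lines the threshold of -0.5, blue a larger fall in the second step (11 genes) and red in the first (4). Ccnb2 and Cdc25b lie lowest and Mad2l1 farthest left.

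Other cell cycle genes were read from 8 lists written by hand. A list of 62 further mitosis genes followed the 43: 41 were lower in OGD and 1 higher, and 41 lower and 0 higher with A-485 over OGD. Against control, 56 were lower. Of all genes tested, 9.81%, 13.4% and 16.6% were called lower in these comparisons. The medians of the list were -0.61, -0.65 and -1.24 on the log2 scale. Nek2, a centrosome kinase, went from 22.3 ± 0.87 to 10.8 ± 0.92 and 6.26 ± 0.52 FPKM, and Wee1, the kinase that restrains Cdk1, from 9.76 ± 0.57 to 4.83 ± 0.038 and 5.21 ± 0.47. These were the largest falls of the list in OGD, at -1.04 ± 0.08 (adjusted p = 1.23e-05) and -0.9995 ± 0.07 (adjusted p = 1.05e-05) (limma). With A-485 the largest were Depdc1b, at -1.73 ± 0.11 (adjusted p = 3.46e-06), and Cep55, a gene of the final cut between daughter cells, at -1.55 ± 0.09 (adjusted p = 1.94e-06). The checkpoint ATPase Trip13 reached -1.97 ± 0.08 (adjusted p = 1.31e-07) against control. G2e3, a ubiquitin ligase, was the gene called higher in OGD, at 0.51 ± 0.11, and it is named after its values were seen.

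Genes of G1/S and DNA replication were mostly lower in OGD and mostly not called with A-485. Of 60 tested of 61, 48 were lower in OGD (9.81% of all genes) and 0 higher, with a median of -0.71. With A-485 over OGD, 10 were lower and 4 higher, where 13.4% and 12.2% of all genes were, with a median of -0.07. The difference of the steps was called above 0 for 33 of 60 and below 0 for 0. In that order the 43 genes had 4 and 11, and the 62 further mitosis genes 10 and 10. Of all genes tested, 16.2% were called on each side, near the share of the further mitosis genes. Rrm2, the ribonucleotide reductase subunit of S phase, fell by 1.42 in OGD, from 44.8 ± 0.41 to 16.7 ± 1.4 FPKM, and stood at 19.95 ± 1.4 FPKM with A-485. Exo1, an exonuclease of repair and replication, fell by 1.38 in OGD. Ccne1, cyclin E1, went down in both steps, by 1.11 in OGD and 0.85 with A-485, and to -1.96 ± 0.06 (adjusted p = 2.72e-08) against control, and Dbf4, the activator of the origin kinase Cdc7, fell by 0.76 with A-485. Gins1, of the replicative helicase, was -1.68 ± 0.07 against control. The 4 that rose with A-485 were Rpa2, Chaf1b, Cdc6 and Ung, by 0.61, 0.50, 0.68 and 0.72, and they are named after their values were seen.

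Of 16 genes of the DREAM, MuvB and B-Myb set, 7 were lower in OGD (9.81% of all genes), 3 with A-485 (13.4% of all genes) and 8 against control (16.6% of all genes), so the share with A-485 was near that of all genes. Mybl2, which encodes B-Myb, went from 83.9 ± 2.0 to 44.1 ± 4.9 and 29.4 ± 1.9 FPKM, at -0.93 ± 0.08 (adjusted p = 2.45e-05) and -0.58 ± 0.08 (adjusted p = 3.08e-04) (limma). Its relative Mybl1 fell by 0.92 with A-485 and Tfdp2, a dimer partner of E2F factors, fell by 1.503, while Tfdp1 fell by 0.74 in OGD. Subunits and inhibitor of the anaphase-promoting complex were lower for 2 of 15 in OGD, 0 with A-485 and 3 against control, shares near or below those of all genes. Fbxo5, the inhibitor, fell by 0.72 in OGD, with Cdc26 at -0.52 ± 0.11 and Anapc1 at -0.71 ± 0.04 against control. Cohesin and condensin genes were lower for 4 of 17 in OGD (9.81% of all genes), 5 with A-485 (13.4%) and 12 against control (16.6%). With scaling to library totals, 7 were lower in OGD. The genes called in OGD included Stag1 and Ncapg2, at -0.77 ± 0.07 and -0.73 ± 0.05. Those called with A-485 included the condensin subunits Ncapg and Ncaph, at -0.97 ± 0.06 and -0.82 ± 0.06.

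Several CDK inhibitors and p53 targets were higher in OGD, and their part in the falls above was not tested. Of 17 CDK inhibitors and p53 targets tested of 20, 9 were higher in OGD and 0 lower, where 11.2% of all genes were called higher. With A-485 over OGD, 1 was higher and 6 lower (12.2% and 13.4% of all genes). Against control, 7 were higher and 5 lower (17% and 16.6% of all genes). The count in OGD fell to 7 with quantile normalization and 6 with scaling to library totals, and the 1 higher with A-485 became 2 and 0. Cdkn1a, which encodes the CDK inhibitor p21, went from 29.96 ± 1.0 to 88.4 ± 5.1 and 53.1 ± 2.4 FPKM, at 1.56 ± 0.05 (adjusted p = 2.91e-07) in OGD and -0.73 ± 0.05 (adjusted p = 6.66e-06) with A-485 (limma). Sesn2, a stress-induced gene, rose by 1.13 in OGD. With A-485 Cdkn2b, which encodes p15, fell by 2.59 from 12.3 ± 0.33 to 1.97 ± 0.26 FPKM and Cdkn1c fell by 1.63. Cdkn2c, which encodes p18, rose to 1.45 ± 0.21 against control.

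Among 11 of 12 D cyclins, Cdk4/6 and growth-factor genes tested, 2 were higher and 1 lower in OGD, and 3 higher and 1 lower with A-485, and 5 higher and 1 lower against control. Of all genes, 11.2%, 12.2% and 17% were called higher in these comparisons, and 9.81%, 13.4% and 16.6% lower. The counts in OGD and the counts of lower genes lie near these shares. The 3 and 5 higher genes of 11 lie above them, by few genes and untested. With scaling to library totals, 2 were higher and 2 lower with A-485, and 4 were higher against control. Myc rose by 1.61 in OGD from 0.862 ± 0.12 to 2.83 ± 0.25 FPKM, and Fos fell by 0.96 in OGD and rose by 1.40 with A-485. Odc1, the rate-limiting enzyme of polyamine synthesis, fell by 1.71 with A-485 from 764 ± 8.9 to 233 ± 14.7 FPKM. Of 8 genes of P300, its relative CBP and other acetyltransferases, 0 were called in OGD or against control (21% and 33.7% of all genes). With A-485 over OGD, 1 was called (25.7% of all genes), Kat7 at -0.55 ± 0.05. Ep300, the gene of the enzyme that the study names as inhibited, was at 14.1 ± 0.50, 12.8 ± 0.20 and 14.6 ± 1.2 FPKM in the 3 groups. A-485 acts on the protein.

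**Figure D5:**
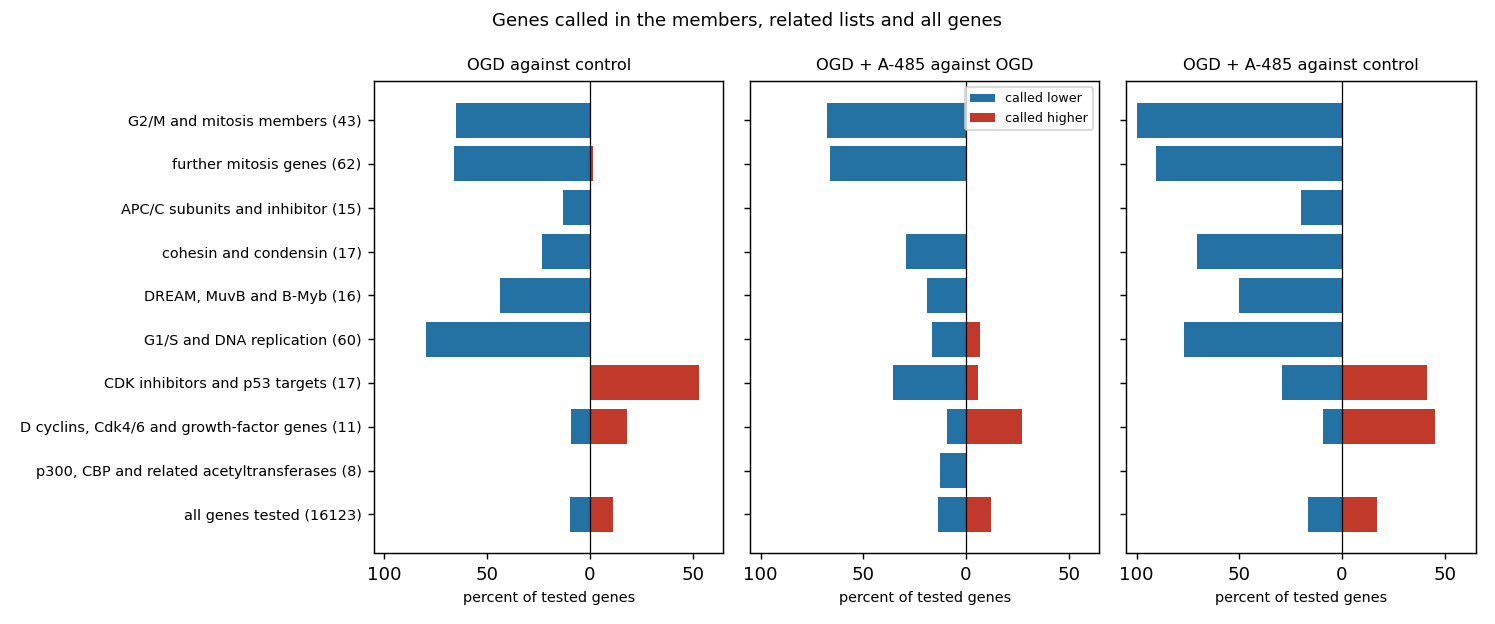
Percent of the tested genes of each list called lower (blue, to the left) and higher (red, to the right) in the 3 comparisons, with all 16123 genes in the last row and list sizes in brackets. The 43 members and the further mitosis genes are low in all 3 panels, and the G1/S and replication genes mainly in the OGD panel (48 of 60) and against control (46 of 60).

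Some of the counts are uncertain because genes share sequence. By GENCODE M21 exons, 15 of the 43 genes share bases with another gene, and the sources do not state whether reads were counted by strand. The largest shares were 29.3% of Kif20a with Cdc23, 22.8% of Ube2c with Tnnc2, 15.1% of Kif4 with Pdzd11, 12.7% of Cdc25c with Gm3550, 12.5% of Ccna2 with Exosc9 and 11.1% of Prc1 with Rccd1, all on the opposite strand. Coordinates in the expression table equalled those of M21 for 39 of the 43 genes, so the shares may differ for the gene models counted. For Cdc25c, 623 shared bases made 12.7% of the M21 exons, while the expression table gives a gene length of 1941 bases. Processed pseudogenes of Ube2c (AC151284.1, 2.26 FPKM on average) and Ccnb1 (Ccnb1-ps, 1.07 FPKM) held counted reads that could belong to either copy, and 7 further pseudogenes of the members were at 0.0272 FPKM or less.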

How the data were processed

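RNA of 9 BV2 libraries was sequenced. The authors counted reads per gene with featureCounts v1.5.0-p3 on GRCm38/mm10 and deposited FPKM, which already hold median-of-ratios size factors. The aligner, the annotation release and the use of strand are not given in the sources used here. Whole reads could be recovered from the deposited FPKM and served to give depth.

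Groups were taken from the treatment label. Genes averaging 0.2 FPKM or more were fitted with limma 3.58.1 (R 4.3.3, trended prior) on log2(FPKM + 0.1), all 9 libraries together with group means and no covariate. A fold change on this scale understates the change of low genes. Calls needed p under 0.01 and a log2 fold change beyond 0.5 in size, the thresholds the authors used with DESeq2 on counts, and p-values were adjusted over all genes tested by the Benjamini-Hochberg method. The scripts were tested on simulated data.

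Values in every library are given for 10 genes set by role (Ccnb1, Cdk1, Plk1, Aurkb, Bub1, Cdc20, Top2a, Mki67, Foxm1 and Ube2c) and for the 3 with the largest falls among those called and not overlapping in each comparison, and for Cenpa, chosen after its values were seen. From each related list, the 2 genes with the largest called change at a mean of 1 FPKM or more are named. The genes and lists were chosen with earlier results of these data known, and the contrast of the steps was added after seeing the data. Alternatives were other pseudocounts, minimum levels, scalings, thresholds, limma-voom on recovered reads, a replicate block, separate fits and leaving out each library. Tables were handled with Python 3.11.15 (pandas 2.3.3, numpy 2.4.6, scipy 1.17.1) and drawn with matplotlib 3.10.9. Promoters came from a RefSeq table on GRCm38.p6.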

Additional observations from a re-analysis of the deposited data

How the results depend on the processing

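Under 22 alternative settings of the fit, the 3 counts of lower genes stayed within 1.5 times their values (28, 29 and 43) except at a log2 fold change threshold of 1, where 1 gene was lower in OGD, 7 with A-485 over OGD and 2 had unequal steps, of 15. Leaving out each library gave 26 to 28, 27 to 31 and 43 lower genes in the 3 comparisons and 14 to 17 unequal steps, with medians from -0.64 to -0.58, -0.73 to -0.66 and -1.27 to -1.21. The lowest median fall with A-485 over OGD in that series, -0.66, came without OGD + A-485 replicate 3. Scaling to library totals moved the medians to -0.67, -0.78 and -1.36, and a pseudocount of 1 moved those of A-485 over OGD and over control to -0.67 and -1.09. The cause was not tested. In 3 cases the sign turned, all in A-485 over OGD for values near 0: Ccna2 to -0.0197 with library totals and to -0.0043 without OGD + A-485 replicate 1 (up to 0.093 without OGD + A-485 replicate 2), and Mad2l1 to 0.0081 with quantile normalization. Deviations of same-numbered libraries were not shared (correlations from -0.0463 to 0.0386), and a fit with a replicate block called 28, 29 and 43 genes lower and 15 unequal steps, so it changed no count. For Cdc25c, 82 to 285 reads a library limit the precision.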
